A study of Rattus norvegicus with 13 samples.

Results

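In the testis of an SHR male with one functional copy of Prdm9, the autosomal windows with little signal in the absence of PRDM9 held a smaller share of the DMC1 signal than in a male with both copies, and what they kept lay more in their strongest windows and less near chromosome ends. The data set side by side a library from an SHR male with the genotype Prdm9+/-, written KO/wt below, and a library from a wild-type SHR male, with 1 library a side. Members of this comparison were the windows on chromosomes 1 to 20 whose strength in the SHR Prdm9 KO/KO library was 20 or less. The limit sets aside the stronger of the sites that are active without PRDM9 and keeps the members. They were 55333 of 91120 autosomal windows (60.7%) and of 96640 windows in all (57.3%). Of the members 1630 were called hotspots in KO/KO, against 35375 of all autosomal windows. The strengths of KO/wt and wild type played no part in the KO/KO limit. The windows are merged hotspot calls, however, so a call in KO/wt or wild type could add a window.

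Both males were adult rats of strain SHR/OlaIpcv, the spontaneously hypertensive rat, and the labels give whole adult testis as the tissue. The deletions were made by zinc-finger nucleases in an exon for the PR/SET domain, the part of PRDM9 with methyltransferase activity, and were kept on the SHR background. The KO/KO male is described as homozygous for the KO39 deletion and the wild-type male as its littermate, but which deletion the KO/wt male carried is not given in the sources used here. Libraries of WKY, a related strain with the same Prdm9 allele, and of BN, which has another allele, served as references, both wild type. With 1 library per condition no difference has a replicate check, so the genotype cannot be told apart from the animal or the library, and no p-value is given.

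PRDM9 binds DNA through an array of zinc fingers and trimethylates histone H3 on lysine 4 beside its binding sites. Meiotic double-strand breaks (DSBs) are then made there. Without PRDM9 the breaks are made at default sites, which carry this histone mark for other reasons and are often promoters. DMC1 is the recombinase that coats the single-stranded DNA at a break, and single-stranded DNA sequencing (SSDS) of DMC1-bound DNA gives a map of DSB hotspots. Its signal at a site depends on how many cells carry a break there and on how long DMC1 stays, and in whole testis these cannot be told apart.

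The fingers of the wild-type SHR allele, which the KO/wt male carried on one chromosome only, are shown because this array directs the hotspots that SHR and WKY share. They are numbered from the first whole finger of the sequenced stretch of genomic DNA, and capitals mark the codons of the residues that contact DNA bases. Fingers 1 and 3 were identical, and finger 4 is cut at the end of the stretch.
finger 1: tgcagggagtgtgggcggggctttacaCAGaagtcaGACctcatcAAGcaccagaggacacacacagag
finger 2: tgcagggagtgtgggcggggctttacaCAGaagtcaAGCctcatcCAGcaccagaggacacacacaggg
finger 4: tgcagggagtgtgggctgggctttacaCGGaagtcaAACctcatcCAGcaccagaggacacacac

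For each window the deposited table gives a hotspot strength, a whole number of unstated scale that can be negative, and a mark for a called hotspot. Depth in reads is unknown. Strengths over the autosomes summed to 2772601 in wild type and 3375943 in KO/wt once negative values were set to 0. Relative strength is the strength in ppm of this sum (parts in 1e+06), so 1 ppm was a strength of 2.77 in wild type and 3.38 in KO/wt. Negative values were present in 10828 autosomal windows of wild type and in 6941 of KO/wt, and their sizes added up to 2.93% and 1.52% of the sums. Of the members, 9508 (17.2%) overlapped another window and shared signal with it.

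Members held 90.5% of the autosomal strength in wild type and 82.5% in KO/wt. In the references that have both Prdm9 copies, the share was 89.98% in WKY and 84.9% in BN. The KO/wt value was below that of each of these libraries, and the BN value was nearer to it than to wild-type SHR. The remaining 35787 autosomal windows held 9.51% in wild type and 17.5% in KO/wt, which is the same difference seen from the other side, since the shares add up to the whole. Over all members together, the log2 ratio of KO/wt to wild type was -0.13 on the scale of summed relative strength.

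Windows that only the BN allele uses gave the background level in both SHR libraries. Among 17766 members called in BN and not in WKY, the median strength was 1 in wild type and 3 in KO/wt, and the middle 90% of windows ran from -8 to 13 and from -5 to 13. Strengths in this range are therefore also found where the SHR allele makes no called hotspot. The 33683 members called in WKY had median strengths of 36 in wild type and 29 in KO/wt, well above it.

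Hotspot calls were fewer with one copy. Hotspots were called in 19217 members in wild type (34.7%) and in 16725 in KO/wt (30.2%), against 21.8% and 21.6% of all autosomal windows. The nearly equal shares over all windows arose because KO/wt had 2918 calls in the windows left out, where wild type had 681. Among members, 15209 windows were called in both, which is 79.1% of the wild-type calls (Wilson 95% interval 78.6 to 79.7%) and 90.9% of the KO/wt calls (90.5 to 91.4%). These intervals cover counting error over windows only. In the windows left out, 565 were called in both, which is 83.0% of the wild-type calls there and 19.4% of the KO/wt calls. The 90.9%, and the single-library counts that follow, thus hold for members and not for all autosomal windows.

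The calls that the libraries did not share were weak. The 4008 members called only in wild type had median strengths of 39 in wild type and 21 in KO/wt, and 81.0% of them were called in WKY. The 1516 called only in KO/wt had median strengths of 25 and 38, and 73.4% were called in WKY. The 15209 called in both had median strengths of 89 and 86. These groups come from the calls of the libraries compared, so their strengths are a description. WKY called 33683 of all 55333 members, against 34872 of 91120 autosomal windows (38.3%). It called 92.5% of the windows called in both SHR libraries. Windows called in 1 SHR library only thus had a WKY call more often than members as a whole. They had it less often than windows called in both. At the median, their strength in the uncalled library was above the BN-only range. Of the calls made only in KO/wt, 398 were in neither WKY nor BN, and 188 of these overlapped another window. Of those made only in wild type, 755 were in neither, and 410 of these overlapped another window. Over all members, 9508 of 55333 did. The median KO/KO strength was 3 in both groups.

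The strongest members were strong in both genotypes. The highest mean relative strength belonged to a window on chromosome 1 (rn5, chr1:148002814-148005814), with a strength of 2258 in wild type, 3320 in KO/wt and 6228 in WKY. Next came chr1:150991641-150994641, with 2217 in wild type, 2960 in KO/wt and 2899 in WKY, and chr1:148597205-148600205, with 2087, 2712 and 4870. All of them had a higher strength in KO/wt, also after division by the autosomal sum. Their log2 ratios of relative strength were 0.27, 0.13 and 0.09, where 5 ppm was added to both sides for single windows. On chromosome 3, chr3:52494586-52497586 had 1611 in wild type, 3130 in KO/wt and 5478 in WKY, a log2 ratio of 0.67. The last of the 5 strongest, chr1:150400564-150403564, had 1846, 2808 and 3327, a log2 ratio of 0.32. Members within 500 kb of these 5 windows had summed log2 ratios from -0.47 to -0.07, so the nearest weaker windows did not share the higher value.

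To describe strength classes without sorting by either side of the comparison, the 33683 members called in WKY were cut by WKY strength into 10 classes of 3368 or 3369 windows. The median log2 ratio was below 0 in all 10 and followed no single direction. It was -0.11 in class 1, the weakest, -0.28 in classes 4, 5 and 6, -0.32 in class 7 and -0.13 in class 10, the strongest. The quartiles within a class lay 0.72 to 0.76 apart, more than the classes differed from each other. Weak and strong classes thus had nearly the same median. At the weak end the median strengths, 11 in both libraries in class 1, were within the range of windows called only in BN, where the added 5 ppm pulls a ratio toward 0.

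Summed strength, which no pseudocount affects, did differ between weak and strong classes. Relative to all members called in WKY, the summed log2 ratio was -0.18 in class 1, -0.24 in class 4, -0.13 in class 7, 0.05 in class 9 and 0.16 in class 10. Class 10 held 33.4% of the strength of these members in wild type and 37.3% in KO/wt, a difference of 3.88 percentage points. Class 9 went from 17.8 to 18.4%, and each of classes 1 to 8 held a smaller share in KO/wt. As shares of the strength of members called in WKY, 1663 windows of class 10 (49.4%) were higher in KO/wt, against 39.3% of all these members. The median log2 ratio of class 10 was 0.02 above the summed ratio of these members, less than the 0.16 of its sum. The 337 windows that were the top 1% by WKY strength held 6.53% in wild type and 7.54% in KO/wt, and 178 of them (52.8%) had a higher share in KO/wt.

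**Figure D1:**
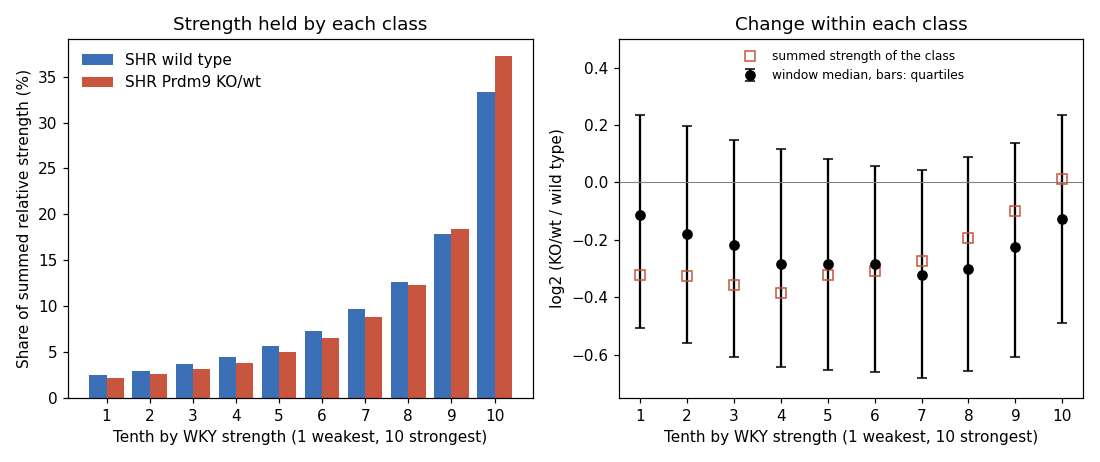
Members called in WKY in 10 classes by WKY strength (x axis, 1 weakest). Left, bars give the percent of summed relative strength held by each class in wild-type SHR and KO/wt, higher in KO/wt in classes 9 and 10 only; right, points give the median log2 ratio with quartiles as bars and squares the log2 ratio of summed strength, which is highest in class 10 (0.01) while the medians of classes 1 and 10 are alike (-0.11 and -0.13).

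Each library's own strongest windows gave the same picture of concentration, as a description, since here the sorting uses the library itself. The top 1% of members called in WKY held 9.48% of their strength in wild type and 12.6% in KO/wt. The top 10% held 42.1% and 50.8%. Sorting by one library and reading the ratio in both moves the medians with the sort: classes by wild-type strength ran from 0.31 in the weakest to -0.05 in the strongest, and classes by KO/wt strength from -0.37 to 0.20.

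The calls differed most in the middle of the strength scale. In class 1, 9.56% of windows were called in wild type and 7.09% in KO/wt. In class 5 the percentages were 44.3 and 33.8, in class 6 60.8 and 49.5, and in class 7 74.4 and 63.0. In class 10 they were 87.7% and 86.3%, so the percentages lay closest together among the strongest and the weakest windows.

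How many members differed by a factor of 2 or more depended on the pseudocount. Of the members called in WKY, 446 (1.32%) were at least 2-fold higher in KO/wt and 2617 (7.77%) at least 2-fold lower, on the scale with 5 ppm added. With 1 ppm added the counts were 2130 and 6801, and with 20 ppm 27 and 99. Lower windows outnumbered higher ones with each. Over all autosomal windows the shares were 4.5% and 3.54%. In the windows left out 3474 (9.71%) were higher and 143 (0.40%) lower. Where the KO/KO library was strong, higher windows thus outnumbered lower ones. The 446 had median strengths of 5 in wild type and 39 in KO/wt, and 22.9% of them overlapped another window against 15.1% of all members called in WKY. The 2617 had medians of 50 and 16, and 38.9% of them lay within 20 Mb of a chromosome end against 29.2% of all.

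The windows below have the largest and smallest log2 ratios among 5865 strong members that were called in WKY and overlapped no other window. In this group the median log2 ratio was -0.04, and the 1st and 99th percentiles were -1.26 and 1.05. Of the 5865, 81 were at least 2-fold higher in KO/wt and 199 at least 2-fold lower. Over all 91120 autosomal windows the counts were 4102 and 3224. The named windows are extremes of the 5865. They were picked as extremes of this comparison, so their values are a description.

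The largest ratio was on chromosome 10 at chr10:90135072-90138072, with a strength of 140 in wild type, 568 in KO/wt and 542 in WKY, 3.12-fold higher in KO/wt. It stood alone, since the other members within 500 kb had a summed log2 ratio of -0.66. Next were chr17:45510905-45513905, with 69 in wild type and 284 in KO/wt, and chr9:42809809-42812809, with 177 and 664. Their neighbours were near 0, at 0.12 and 0.04. Then came chr2:100545164-100548164, with 41 and 171, and chr8:76886317-76889317, with 111 and 395, the only one of the 5 that was called in neither SHR library. Log2 ratios of these 5 ran from 1.44 to 1.64.

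The smallest ratio was on chromosome 5 at chr5:32525716-32528716, with 169 in wild type, 40 in KO/wt and 558 in WKY, a log2 ratio of -1.97. Here the neighbours were low too, with a summed log2 ratio of -1.24. At chr9:106316103-106319103 the strengths were 169 and 41, and at chr6:24813905-24816905 267 and 88. The neighbours had -0.64 and -1.16. On chromosome 1, chr1:6001148-6004148 had 295 in wild type and 102 in KO/wt, and on chromosome 14, chr14:3901211-3904211 had 190 and 62, with neighbours at -0.63 and -0.86. All 5 of the lowest windows thus had neighbours with a summed log2 ratio below the -0.13 of all members. Of the 5 highest, only the window on chromosome 10 did. By the median, the neighbours of the low chromosome 9 window were at -0.04, above the -0.09 of all members. Both sets of 5 had a KO/KO strength of 15 or less.

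By chromosome, the summed log2 ratio of members was below 0 on all 20 autosomes. It was highest on chromosomes 7 (-0.05), 1 (-0.09) and 5 (-0.09) and lowest on chromosomes 20 (-0.30), 18 (-0.24) and 12 (-0.22), a range of 0.25 with an SD of 0.06 over chromosomes. On chromosome 20 the member strengths summed to 46899 in wild type and 46486 in KO/wt, and its share of all member strength was 1.87% and 1.67%. On chromosome 7 they summed to 136151 and 160079, with shares of 5.43% and 5.75%. The ordering went with chromosome length, with a Spearman rho of 0.74 over the 20 autosomes, and against the density of KO/KO strength per Mb, with a rho of -0.63. These points share both libraries and the same division by the autosomal sum. With only the windows more than 20 Mb from an end, rho with length was 0.28.

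When the windows left out were counted as well, the chromosomes differed less. The range over the 20 autosomes was then 0.13, from -0.08 on chromosome 18 to 0.05 on chromosome 7. Chromosome 20 was at -0.02, where it had been at -0.30 over members. Its lower member strength in KO/wt was therefore nearly balanced by windows with KO/KO strength above 20 on the same chromosome.

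**Figure D2:**
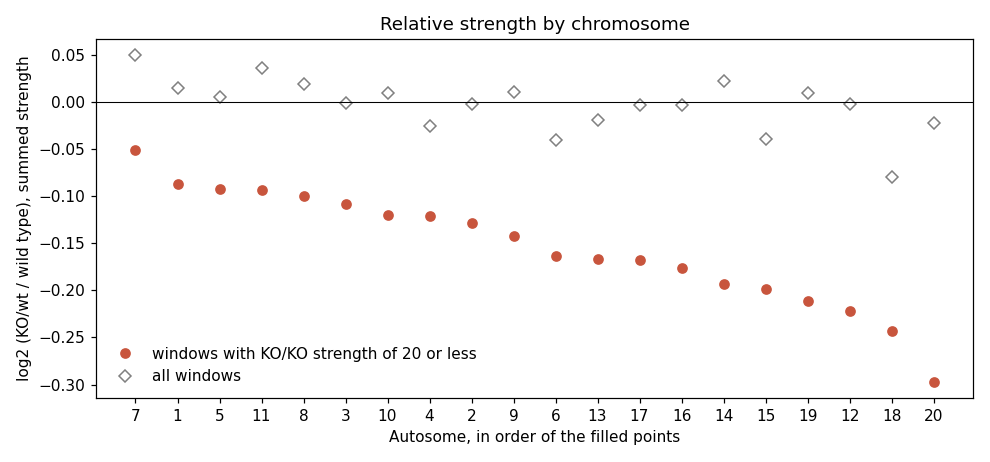
Log2 ratio of summed relative strength, KO/wt to wild type (y axis), for each autosome (x axis, ordered by the filled points). Filled points are members and open diamonds all windows; the filled points run from -0.05 to -0.30, and the diamonds stay between -0.08 and 0.05.

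Chromosome ends stood out. Ends were taken from the first base and from the last window of each chromosome, and this division was added after the 5-Mb bins had been seen. Within 20 Mb of an end the 16183 members had a summed log2 ratio of -0.30, and the members farther in had -0.07. The difference was -0.23. By distance, the log2 ratio was -0.32 from 0 to 5 Mb, -0.34 from 5 to 10 Mb, -0.27 from 10 to 20 Mb, -0.11 from 20 to 40 Mb and -0.05 beyond 40 Mb. The low values thus reached some way into the chromosome and did not belong to the last bases alone.

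**Figure D3:**
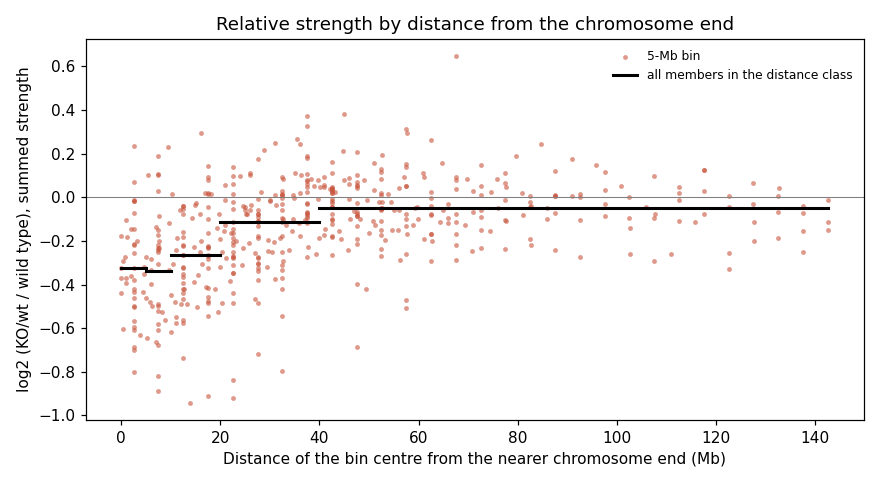
Log2 ratio of summed relative strength, KO/wt to wild type (y axis), against distance from the nearer chromosome end in Mb (x axis). Points are 5-Mb bins of members and black lines all members in a distance class; the lines go from -0.32 next to the end to -0.05 beyond 40 Mb.

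The difference was seen on nearly every autosome. Members within 20 Mb of an end had a lower summed log2 ratio than those farther in on 19 of 20 autosomes, and chromosome 12 was the exception, with a difference of 0.05. It was widest on chromosomes 14 (-0.53) and 9 (-0.40). Taken separately, the first 20 Mb were lower than the inner part on 18 autosomes and the last 20 Mb on 19. The medians of members called in WKY, which a few strong windows cannot move, were lower at the ends on 17 of 20. The autosomes are parts of the same pair of libraries and not replicates.

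**Figure D4:**
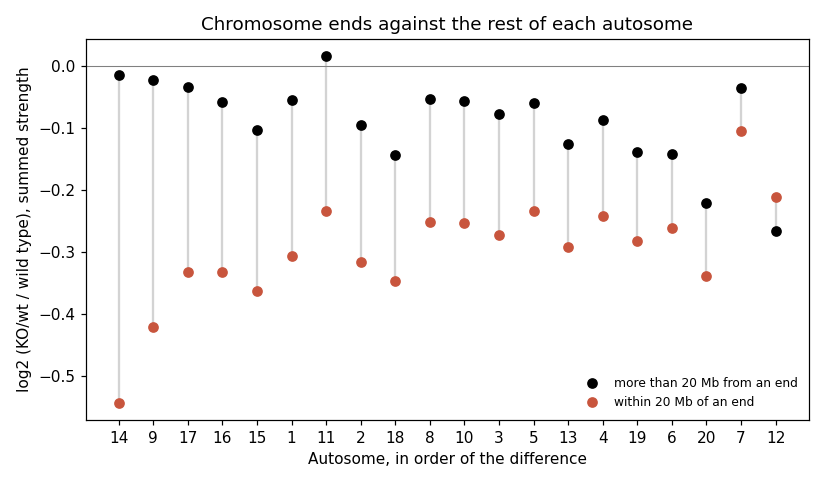
Log2 ratio of summed relative strength, KO/wt to wild type (y axis), within 20 Mb of a chromosome end and farther in, for each autosome (x axis, ordered by the difference). The end point lies below the inner point on every autosome but chromosome 12.

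The end share was also set against the libraries of the other strains. Members within 20 Mb of an end held 25.4% of member strength in KO/wt, against 28.5% in the wild-type SHR male, 29.2% for WKY and 28.0% for BN. KO/wt was the lowest of these. The ratio of WKY to wild-type SHR was lower at the ends on 10 of 20 autosomes, and the ratio of KO/wt to WKY on 19 of 20. For WKY to wild-type SHR the difference ran from -0.25 on chromosome 12 to 0.42 on chromosome 3. Single autosomes thus also differed at their ends between these wild-type libraries. Next to the ends the strains differed from each other, however. From 0 to 5 Mb the share was 8.18% in wild type and 7.17% in KO/wt but 5.78% in WKY and 5.46% in BN. From 5 to 20 Mb it was 20.4% in wild type, 18.2% in KO/wt, 23.4% in WKY and 22.5% in BN. In the windows left out, the share of their strength that lay within 20 Mb of an end was 31.8% in wild type and 37.5% in KO/wt, a difference in the opposite direction.

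The difference between ends and inner part varied with strength class. Members called in WKY were cut by WKY strength into 5 groups, each split by zone. In the strongest group the median log2 ratio was -0.10 in the inner part and -0.38 within 20 Mb of an end. In the next it was -0.26 and -0.44. In the weakest, whose strengths were close to background, it was -0.15 and -0.14. The median was thus lower near the ends in every group but the weakest. The summed log2 ratio was lower near the ends in all 5 groups, with -0.30 and -0.37 in the weakest. In the strongest group the summed log2 ratio was 0.05 in the inner part and -0.25 near the ends. Near the ends, too, the strongest group had the highest value, with -0.37, -0.50, -0.43 and -0.38 in the other groups from the weakest up. Only in the inner part was the value of the strongest group positive.

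Of 540 bins of 5 Mb that held members, 528 had at least 10 members called in WKY and were used. Their log2 ratios had a median of -0.11, quartiles of -0.26 and 0.01 and an SD of 0.23. In 22 bins (4.17%) the summed relative strength was at least 1.5-fold lower in KO/wt and in 1 bin (0.19%) at least 1.5-fold higher, against 0.189% of bins in each direction when all autosomal windows were summed. Of the 22, 17 lay within 20 Mb of an end, where 29.4% of the bins lie. With each bin set against the overall member ratio, 9 bins were lower and 1 higher.

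Bins gave like values from separate windows. Members of each bin were divided by position into every other window and the remaining windows. Over the 528 bins the log2 ratios of the parts had a Pearson r of 0.58 and a Spearman rho of 0.50. The parts come from the same libraries and neighbouring windows can overlap, so this describes how regional the ratio was within these libraries. Neighbouring bins had a rho of 0.44 over 502 pairs. The SD of the ratio of WKY to wild-type SHR over the same bins was 0.44, larger than the 0.23 of KO/wt to wild type, and its rho with distance from the end was -0.14, against 0.46 for KO/wt.

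**Figure D5:**
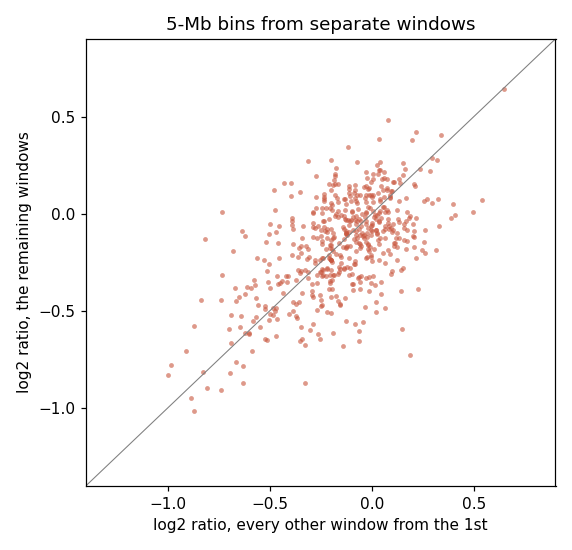
Log2 ratio of KO/wt to wild type in 5-Mb bins, from every other member window (x axis) and from the remaining windows (y axis), 1 point per bin and a line of equality. The bins with the lowest values on one axis are mostly low on the other (Spearman rho 0.50 over 528 bins).

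The lowest bin was on chromosome 9 from 105 to 110 Mb. Its 124 members had strengths that summed to 7157 in wild type and 4538 in KO/wt, a log2 ratio of -0.94, with -0.87 and -1.01 from the separate parts. Of its 100 members called in WKY, 27 had a higher relative strength in KO/wt. On chromosome 20 the neighbouring bins from 20 to 25 Mb and from 15 to 20 Mb had log2 ratios of -0.92 and -0.91. Their strengths summed to 2342 in wild type and 1507 in KO/wt, and to 3223 and 2090. Together they made a 10-Mb stretch with low relative strength in KO/wt.

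The highest bin was on chromosome 1 from 65 to 70 Mb, with a log2 ratio of 0.65. It held 27 members that summed to 855 in wild type and 1630 in KO/wt, and the strongest of them made up 22.5% of the wild-type sum. The next were chromosome 17 from 45 to 50 Mb (0.38, with sums of 3126 and 4959) and chromosome 1 from 35 to 40 Mb (0.37, with sums of 3488 and 5492). The value on chromosome 17 differed between the separate parts, 0.54 and 0.07, and this bin holds the single window with the second highest ratio named above. The highest bin thus rests on few windows.

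The bins were also summed with the windows left out. Summed over all windows, the SD over the 528 bins was 0.15, against 0.23 over members, and 2 bins were past 1.5-fold. Relative strength of the left-out windows was higher in KO/wt in 517 of the 528 bins (97.9%). This held in 379 of the 383 bins where members were lower (98.96%) and in 138 of the 145 others (95.2%), so the direction of the left-out windows says little about that of the members in a bin. In the bin on chromosome 20 from 20 to 25 Mb, members differed by -398 ppm (KO/wt minus wild type) and the windows left out by 488 ppm, and the log2 ratio over all windows was 0.11. In the lowest bin, on chromosome 9, the differences were -1237 ppm and 555 ppm, and the log2 ratio was -0.37. On chromosome 20 from 15 to 20 Mb they were -543 ppm and 330.2 ppm, and the log2 ratio was -0.24. Over bins the differences in ppm had a Spearman rho of -0.57 and a Pearson r of -0.64. All points share both libraries, and the differences add up to 0 over all autosomal windows. Over all windows the difference between ends and inner part was -0.09, against -0.23 over members.

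The member ratio also went with how much default signal a region had. In 5 groups of bins ordered by KO/KO strength over all windows, the median log2 ratio of members was -0.05, -0.06, -0.08, -0.16 and -0.22. Bins with more KO/KO strength also lay nearer to an end, with a median distance of 54.3 Mb in the first group and 24.4 Mb in the last. With only the 373 bins over 20 Mb from an end, the medians were 0.01, -0.01, -0.05, -0.11 and -0.13, so the order was also present there. The rho between KO/KO strength and the member ratio was -0.31 over all bins and -0.33 over these.

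Single windows were also ordered by distance from a default hotspot. Members called in WKY that lay up to 3 kb from the nearest KO/KO hotspot had a median log2 ratio of -0.28 over 1766 windows. From 3 to 10 kb and from 10 to 20 kb it was -0.28 as well. It was -0.25 from 20 to 50 kb, -0.23 from 50 to 100 kb and -0.12 beyond 100 kb. No step was seen in the medians next to a default hotspot, and the median was nearest to 0 in the windows farthest away. The summed log2 ratio was -0.21 up to 3 kb and -0.22 from 3 to 10 kb. It then rose through -0.18, -0.15 and -0.12 to -0.05 beyond 100 kb. Windows beyond 100 kb also had the lowest median WKY strength, 173 against 209 to 231 in the nearer classes. Over windows more than 20 Mb from an end the medians went from -0.23 to -0.12.

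At the KO/KO limit that defined the members there was no jump. Windows called in WKY with KO/KO strengths of 16 to 20, just inside it, numbered 550 and had median strengths of 29 in wild type and 32 in KO/wt, a median log2 ratio of -0.01. The 256 windows just outside, at 21 to 25, had 28 and 35, a median log2 ratio of 0.04. Members with a KO/KO strength of 0 to 5 had 35 and 28, a median log2 ratio of -0.25 over 17743 windows. Members near the limit were therefore between the bulk of the members and the windows left out, and the part of default signal in their strength was not tested.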

How the data were processed

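DMC1 SSDS was measured in 5 libraries that share one table, with 1 library per condition, and samples were grouped by their labels. The authors aligned reads to rat rn5 with a modified bwa (the submitters' processing notes give BWA 0.7.12, MACS2 2.1.0.20150420 and bedtools 2.23.0), kept uniquely mapping type 1 single-stranded fragments, called hotspots and merged the calls into windows. Hotspot strength is a deposited score. Its definition and scaling are not given in the sources used here, and depth is unknown. The hotspot marks are 0 or 1.

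Negative strengths were set to 0 and each library was divided by its autosomal sum. Log2 ratios of single windows had 5 ppm added to both sides, and sums over windows had none. Windows were called by a 2-fold and bins by a 1.5-fold difference. Wilson 95% intervals were used for shares of calls. Windows were named by rule: the 5 strongest by mean relative strength; the 5 largest and 5 smallest log2 ratios among members called in WKY that overlap no other window and are in the upper 20% by mean relative strength; and the 3 highest and lowest bins and autosomes. Members, lists and rules were chosen with earlier results of these data known. Tables were made in Python 3.11.15 (pandas 2.3.3, numpy 2.4.6, scipy 1.17.1) and figures with matplotlib 3.10.9. The code was tested on simulated data, where 3 of 3 known answers for KO/wt against wild type were recovered over 96640 windows. No genome of rn5 was used here, so windows carry no gene annotation or sequence.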

Additional observations from a re-analysis of the deposited data

How the results depend on the processing

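Alternatives were other denominators, KO/KO limits, pseudocounts, class sortings and bin sizes. Of 70 values of 9 results, 40 kept their direction and stayed near the reported value (counts within 1.5 times, other values within a narrower bound), 25 moved further and 5 turned in sign. The cause of these moves was not tested. The results on chromosome ends were added after seeing the data. Depth is unknown and 1 library per condition leaves the spread between animals unmeasured. No paired analysis was possible because each condition has 1 library.

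The median log2 ratio of the strongest class minus the weakest was -0.014, too near 0 for a direction. It was 0.054 with division by the sum over members, 0.027 over windows that overlap no other, 0.071 with 1 ppm added, 0.56 with classes by KO/wt strength and 0.042 by the mean of both. It was -0.023 with negative strengths kept, -0.029 at a KO/KO limit of 5, -0.051 with 20 ppm added and -0.36 with classes by wild-type strength. The gain of the strongest class, 3.88 percentage points, was 6.05 with classes by wild-type strength, 10.7 by KO/wt strength and 8.75 by the mean. The member share differed by -8.02 percentage points, and by -4.09 over windows called in KO/wt or wild type.

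Of members called in WKY, 446 were at least 2-fold higher. The count was 803 with division by the sum over members, 256 at a KO/KO limit of 5, 2130 with 1 ppm added and 27 with 20 ppm. The 2617 lower ones were 6801 with 1 ppm and 99 with 20 ppm, so these counts rest on the pseudocount. The range over autosomes, 0.25, was 0.19 at a KO/KO limit of 5 and 0.13 without a limit, where the SD over bins was 0.15 and 2 bins were past 1.5-fold. The 23 bins past 1.5-fold were 10 with division by the sum over members, 40 at a KO/KO limit of 5, 38 without the 1% strongest members, 96 in 2-Mb bins and 10 in 10-Mb bins. The difference between ends and inner part was -0.094 without a KO/KO limit and -0.16 with ends of 40 Mb. The member share has no value without a KO/KO limit.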

Other observations

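Chromosome X was outside the comparison. It is present in 1 copy in males, and its windows were scaled by the same autosomal sums. Its 5520 windows summed to 24.6% of the autosomal sum in wild type and 23.5% in KO/wt. Of these, 4039 had a KO/KO strength of 20 or less, and their summed log2 ratio was -0.07. The 2249 of them called in WKY had median strengths of 84 in wild type and 61 in KO/wt and a median log2 ratio of -0.38. Median and sum lay further apart than on the autosomes, where members called in WKY had a median of -0.24 and all members a sum of -0.13. The strongest 224 X windows by WKY strength held 46.3% of the strength of those called in WKY in wild type and 50.6% in KO/wt. The summed log2 ratio was -0.10 within 20 Mb of an end of X and -0.05 farther in, and 31 bins of 5 Mb ran from -0.47 to 0.20.

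The most negative strengths of members were in 1 window on chromosome 1 that overlaps another, with -1569 in wild type and -3040 in KO/wt.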
